A study of Mus musculus with 7 samples.

Results

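Prostaglandins and leukotrienes are made from arachidonate by a small set of enzymes, and 10 of their genes are described here in mouse epidermis after bone marrow transplantation (BMT). The genes were taken by symbol from a list drawn up with earlier results of these data known. These were Ptgs1, Ptgs2, Ptges, Hpgds, Tbxas1, Alox5, Alox5ap, Ltc4s, Lta4h and Alox15. They are 10 of 31907 genes named in at least 1 of the 3 expression tables. All 10 had a row among the 15155 genes of the donor myeloid table and the 26383 genes of the keratinocyte table. In the host myeloid table, with 23737 genes, 9 of the 10 had a row, and Alox15 was not analysed there.

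RNA of single cells was read in 7 droplet libraries of epidermis, all taken 3 weeks after BMT, with unique molecular identifiers (UMIs) that count captured transcripts. Lethally irradiated male CD45.2 C57BL/6 hosts had received bone marrow of female CD45.1 C57BL/6 donors. Donor CD11b+MHCII+ myeloid cells came as 3 libraries labelled BMT (replicates 1 to 3) and 1 labelled BMT + T cells. Keratinocytes were sorted as CD45-negative cells, with 1 library under each label, and host CD11b+MHCII+ cells gave 1 library. The T cells were CD4 cells plus CD8 cells of the Matahari line, which recognise a male antigen, and the labels and the series' design text differ on whether the BMT libraries also received them, so comparisons are between labels. The authors state that epidermis of several mice was pooled and that the donor myeloid data combine independent experiments. Nothing states which library came from which experiment, or that the libraries of a label came from separate animals. The p-values therefore measure the spread among these libraries and their clusters only. Short library names take 2 forms, one for BMT replicates 1 and 2 and one for BMT replicate 3 together with BMT + T cells. Donor libraries held 2572, 8382 and 226 cells (BMT replicates 1 to 3) and 719 cells (BMT + T cells), at median depths of 7021.5 to 13387 UMIs per cell. Libraries shared 8 cell barcodes in the donor table, 2 in the keratinocyte table and 0 in the host table.

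The cyclooxygenases Ptgs1 and Ptgs2 turn arachidonate into prostaglandin H2. Terminal synthases then make single products: Hpgds makes prostaglandin D2, Ptges makes prostaglandin E2 and Tbxas1 makes thromboxane A2. In the other branch, 5-lipoxygenase (Alox5), with its activating protein Alox5ap, makes leukotriene A4, which Lta4h turns into leukotriene B4 and Ltc4s into leukotriene C4. Alox15 encodes a lipoxygenase that adds oxygen to another carbon of arachidonate and related fatty acids. Ptgs2 is known as the inducible and Ptgs1 as the constitutive cyclooxygenase. Langerhans cells are the resident antigen-presenting cells of the epidermis, and after their loss monocytes can enter and give rise to monocyte-derived Langerhans cells (mLC).

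Levels are UMIs per 10000 UMIs of a cell (CP10K), averaged over the cells of a library and cluster with at least 20 cells. Clusters carry the names the authors gave them. The resident mLC cluster held 105, 1175 and 51 cells of BMT replicates 1 to 3 and 320 cells of the BMT + T cells library. Its summed level of the 4 Langerhans markers Cd207, Epcam, Mfge8 and Cldn1 was 64.1 to 89.8 CP10K, against 0.442 to 1.65 in the monocyte cluster (Mono), and none of the 4 was at 0. Cd207 itself was lowest in BMT replicate 1, at 1.31 CP10K against 5.50 to 10.4 in the other libraries. Because the clusters were made from these same values, a difference between clusters describes the annotation and is no independent evidence of it.

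A set of 4 genes was high together in resident mLC: Ptgs1, Hpgds, Alox5 and Ltc4s. Cycling mLC had the next highest mean for each of them. The stretch before the start site is shown for Ptgs1, Alox5 and Ltc4s, which moved together, and for Ptgs2, which did not. Each is the 250 bases before the start listed by RefSeq (GRCm38.p6), 5′ to 3′ on the gene's strand, and capitals mark the searched motifs. The Hpgds window, which lies inside the annotated gene, is not printed. The Ptgs1 stretch lies at chr2:36230176-36230425 on the plus strand, inside the annotated span of the gene (chr2:36216742-36258593). Those of Alox5 (chr6:116461179-116461428, minus strand), Ltc4s (chr11:50238533-50238782, minus strand) and Ptgs2 (chr1:150099781-150100030, plus strand) lie directly before their genes.
Ptgs1: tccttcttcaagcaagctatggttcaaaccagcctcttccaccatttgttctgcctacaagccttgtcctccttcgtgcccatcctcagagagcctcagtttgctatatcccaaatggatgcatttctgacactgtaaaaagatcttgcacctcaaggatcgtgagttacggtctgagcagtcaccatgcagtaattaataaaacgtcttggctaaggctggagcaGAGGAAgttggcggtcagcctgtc
Alox5: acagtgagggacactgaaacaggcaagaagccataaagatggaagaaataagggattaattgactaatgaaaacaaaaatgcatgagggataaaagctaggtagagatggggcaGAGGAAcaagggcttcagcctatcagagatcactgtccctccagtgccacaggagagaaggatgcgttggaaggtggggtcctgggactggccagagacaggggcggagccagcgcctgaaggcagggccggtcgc
Ltc4s: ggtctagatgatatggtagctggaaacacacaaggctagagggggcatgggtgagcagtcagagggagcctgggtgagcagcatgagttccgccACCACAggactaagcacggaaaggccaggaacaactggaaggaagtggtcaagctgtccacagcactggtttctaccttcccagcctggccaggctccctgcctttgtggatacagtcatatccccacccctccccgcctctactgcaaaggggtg
Ptgs2: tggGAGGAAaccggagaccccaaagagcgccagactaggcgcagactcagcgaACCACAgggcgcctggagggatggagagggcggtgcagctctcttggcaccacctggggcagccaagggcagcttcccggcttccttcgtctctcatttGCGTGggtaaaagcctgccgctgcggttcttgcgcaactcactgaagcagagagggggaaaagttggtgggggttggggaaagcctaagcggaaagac

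Motifs were searched on both strands of 300 bases, 250 before and 50 after the start, in the 8 of 10 members with a listed promoter. Alox5ap and Alox15 had none listed. The core GAGGAA of PU.1, a factor of myeloid cells, was found in 8 of 8 members and in 28.3% of 32851 listed promoters. Its first base lay at -24 in Ptgs1, -136 in Alox5 and -247 in Ptgs2, counted from the start, and in Ltc4s it lay after the start, at 17. The RUNX core TGTGGT was found in 3 of 8 members, which were Ptgs2, Hpgds and Ltc4s, and in 16.8% of all promoters. The aryl hydrocarbon receptor core GCGTG was found in 2 of 8 members (Ptgs2 and Ptges) against 32.4%, and the cAMP response core TGACG in 1 of 8 (Ptgs2) against 20.8%. Its match in Ptgs2, at 14, overlaps no other motif and lies outside the printed stretch. The string GGGACTT, part of an NF-kB site, was in 0 of 8 members and 5.44% of promoters. A match describes letters only, and the motifs are short enough to occur often.

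Both cyclooxygenase genes were measured in all donor clusters, and they lay in different cells. Ptgs1 stood at 5.28, 7.36 and 4.41 CP10K in resident mLC of BMT replicates 1 to 3 and at 6.24 CP10K in those of the BMT + T cells library. In Mono, the cluster named for monocytes, it stood at 0.0151, 0.0751, 0.0643 and 0.194 CP10K in the same order. Every resident mLC value lay above every Mono value, and the same held against the macrophage cluster Mrc1+, at 0.0290 to 0.260 CP10K. Cycling mLC came next and differed more between libraries, with 1.33 CP10K in BMT replicate 1, 3.75 CP10K in BMT replicate 2 and 5.54 CP10K in the BMT + T cells library. Their range overlapped that of resident mLC. The remaining 7 clusters had means of 0.0848 to 0.170 CP10K, and their order is not separated by the spread between libraries. Resident mLC were 4.08 to 44.5% of the cells of a donor library and held 68.4 to 84.0% of its Ptgs1 UMIs.

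Ptgs2 had the opposite arrangement. It was highest in the S100a+ monocytes of BMT replicate 2, at 4.90 CP10K, where 310 of 594 cells had a Ptgs2 UMI (52.2%, exact 95% interval 48.1 to 56.3%). No other library had 20 cells in that cluster. Hmox1+ monocytes stood at 0.309 CP10K in BMT replicate 1, 4.45 CP10K in BMT replicate 2 and 0.895 CP10K in the BMT + T cells library. Mono stood at 1.51, 0.630 and 0.571 CP10K in BMT replicates 1 to 3 and at 0.0963 CP10K in the BMT + T cells library, which was the lowest of the 4. In resident mLC Ptgs2 was near or at 0, with 0.0872, 0.0317, 0 and 0.000576 CP10K, and 30 UMIs in 4 libraries together. Neutrophil markers moved with part of this pattern. Of 5 listed, 4 were in the table (S100a8, S100a9, Retnlg and Csf3r). Their summed level was 556 CP10K in the S100a+ monocytes of BMT replicate 2, 5.86 to 48.6 CP10K in Hmox1+ monocytes, 0.674 to 4.16 CP10K in Mono and 0 to 1.17 CP10K in resident mLC. In the S100a+ monocytes none of the 4 was at 0, and their part in the Ptgs2 level was not tested.

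**Figure D1:**
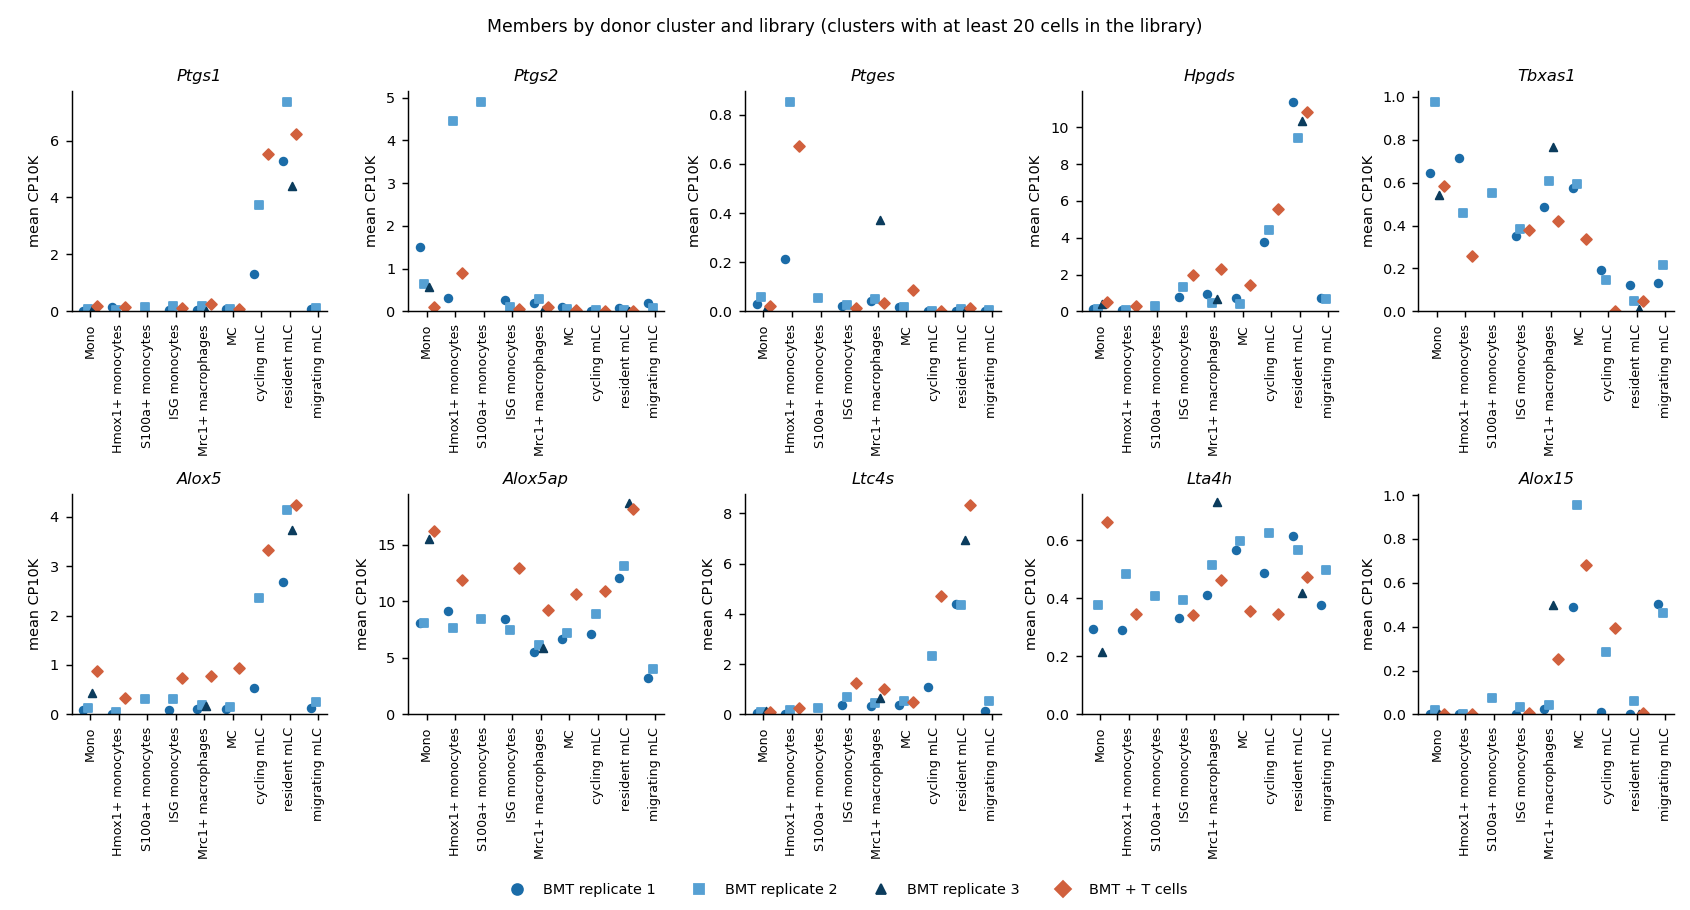
Level of each of the 10 genes (mean CP10K, linear axes that differ between panels) by donor cluster, with 1 point for each library that had at least 20 cells there. Ptgs1, Hpgds, Alox5 and Ltc4s are highest in resident mLC, Ptgs2 in S100a+ monocytes at 4.90 CP10K, and Lta4h is nearly level, with cluster means of 0.356 to 0.531 CP10K.

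Among the terminal prostaglandin synthases, Hpgds was the gene of resident mLC. It stood at 11.4, 9.43 and 10.4 CP10K in resident mLC of BMT replicates 1 to 3 and at 10.8 CP10K in the BMT + T cells library, a mean of 10.5 ± 0.830 (SD, n = 4). Cycling mLC, at 3.79 to 5.56 CP10K, did not overlap this range, nor did any other cluster. Mono stood at 0.124, 0.124, 0.393 and 0.484 CP10K. Between them lay ISG monocytes (0.789 to 1.99 CP10K), Mrc1+ macrophages (0.471 to 2.32 CP10K) and the cluster named MC (0.389 to 1.42 CP10K), whose ranges overlap. In each of these 3 clusters the BMT + T cells library was the highest.

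Tbxas1 ran the other way. Mono stood at 0.647, 0.976 and 0.544 CP10K in BMT replicates 1 to 3 and at 0.586 CP10K in the BMT + T cells library, while resident mLC stood at 0.121, 0.0482, 0.0120 and 0.0477 CP10K. The values of the 2 clusters did not overlap. Cluster means fell from 0.688 CP10K in Mono through Mrc1+ macrophages, S100a+ monocytes, MC, Hmox1+ monocytes and ISG monocytes (0.371 CP10K) to migrating mLC (0.174 CP10K), with overlapping neighbours down to ISG monocytes. The annotated span of Tbxas1 overlaps those of 7 other genes, among them Hipk2, and the strand used in counting is not given in the sources used here.

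Ptges was sparse in donor cells and its mean of 0.0974 CP10K missed the filter for testing. Hmox1+ monocytes were its highest cluster, at 0.212 CP10K in BMT replicate 1, 0.853 CP10K in BMT replicate 2 and 0.675 CP10K in the BMT + T cells library. In resident mLC it reached 0.0146 CP10K at most, with 9 UMIs over 4 libraries. Its span overlaps a pseudogene and a long noncoding RNA.

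The 5-lipoxygenase branch split by gene. Alox5 stood at 2.67, 4.14 and 3.74 CP10K in resident mLC of BMT replicates 1 to 3 and at 4.24 CP10K in the BMT + T cells library. In Mono it stood at 0.0831, 0.130, 0.434 and 0.870 CP10K, so the library labelled BMT + T cells was highest in both clusters. The values of the 2 clusters did not overlap. Cycling mLC stood at 0.537 to 3.34 CP10K, a range that overlapped that of resident mLC. The span of Alox5 overlaps a long noncoding RNA, Gm38880.

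Ltc4s, which encodes leukotriene C4 synthase, stood at 4.40, 4.34 and 6.92 CP10K in resident mLC of BMT replicates 1 to 3 and at 8.34 CP10K in the BMT + T cells library. Mono, at 0.0535 to 0.147 CP10K, was its lowest cluster. The last 2 of these were the higher pair in resident mLC, as they were for Alox5ap, at 18.7 and 18.1 CP10K against 12.1 and 13.1 CP10K. These pairs are also the 2 forms of library name, whose part was not tested. In cycling mLC Ltc4s stood at 1.10 to 4.69 CP10K, and this range overlapped that of resident mLC.

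Alox5ap, unlike its partner Alox5, was present at several CP10K in every donor cluster. Mono stood at 8.06 and 8.05 CP10K in BMT replicates 1 and 2, and at 15.5 CP10K in BMT replicate 3 and 16.2 CP10K in the BMT + T cells library. The higher pair was again the same, and within a library resident mLC exceeded Mono by 0.16 to 0.70 on the log2 scale. Migrating mLC were lowest, at 3.20 and 3.99 CP10K. Lta4h showed the least variation, with all 27 library and cluster means between 0.217 and 0.733 CP10K.

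Alox15 was highest in MC, at 0.492 CP10K in BMT replicate 1, 0.955 CP10K in BMT replicate 2 and 0.680 CP10K in the BMT + T cells library. Migrating mLC followed at 0.503 and 0.462 CP10K in BMT replicates 1 and 2, a range that overlaps MC. Few cells carried it, since 8.88 to 16.2% of MC cells had a UMI. In resident mLC it was 0 in BMT replicates 1 and 3, and 0.0626 and 0.00657 CP10K in the other libraries.

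Shares of cells with a UMI were compared after each donor cell was thinned to 2000 UMIs, which left out 182, 770 and 38 cells of BMT replicates 1 to 3 and 87 of the BMT + T cells library. Ptgs1 was then seen in 44.2 to 64.6% of resident mLC and 0.417 to 3.51% of Mono, and without thinning in 81.0 to 88.3% and 1.63 to 7.94%. Hpgds was seen in 77.7 to 80.9% of thinned resident mLC and 0.833 to 11.4% of Mono. Ltc4s gave 47.7 to 62.2% and 0.417 to 2.66%, and Alox5 gave 38.4 to 50.9% and 2.09 to 12.3%. The level in resident mLC was thus carried by a large share of the cells for all 4 genes. These genes are also known from mast cells. Of 7 listed mast cell markers 3 were in the table, and in resident mLC Cpa3 was at 0 in all 4 libraries and the summed level was 0.0977 to 0.319 CP10K, nearly all of it Kit.

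Limma on log2(CP10K + 0.1), with library as a block and Benjamini-Hochberg adjustment over 7267 genes, put sizes on these patterns. The main fits held all 27 library and cluster means. The spread behind their p-values is thus pooled over all clusters, also those not compared. Cycling mLC were in the fits but in no comparison. Calls needed an absolute log2 fold change over 2 with an adjusted p under 0.05. Of the members, 9 of 10 passed the filter and were tested. Between resident mLC and Mono 6 of the 9 were called, 4 higher and 2 lower, where 4.06% of all genes tested were called (295 of 7267). The members were chosen with earlier results of these data known, and the authors name Ptgs1, Ltc4s and Hpgds among genes gained towards resident mLC. Their share here and in the comparisons below is thus no independent evidence. Ptgs1 was higher by 5.04 ± 0.280 (SE; adjusted p = 1.19e-12), Hpgds by 4.93 ± 0.262 (7.20e-13), Ltc4s by 4.89 ± 0.247 (4.76e-13) and Alox5 by 3.28 ± 0.295 (3.66e-09), in 4 of 4 libraries each. Tbxas1 was lower, at -2.34 ± 0.254 (limma adjusted p = 8.47e-08), and so was Ptgs2, at -2.32 ± 0.522 (0.00161), again in 4 of 4 libraries. Alox5ap differed by 0.43 ± 0.135 with a limma adjusted p of 0.017, under the fold asked for, and Lta4h by 0.41 (adjusted p = 0.187). The median over the 9 members was 0.43 and that over all genes 0.14.

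Against Mrc1+ macrophages the same 4 genes were higher and Tbxas1 was lower, 5 of 9 members, where 3.51% of all genes were called. The log2 fold changes were 4.82 for Ptgs1, 3.37 for Hpgds, 3.43 for Alox5 and 3.14 for Ltc4s. Tbxas1 lay close to the fold asked for, at -2.11, and was not called without BMT replicate 3 (-1.82), with a pseudocount of 1, with at least 50 cells, on summed UMIs or after the quality filter. Ptgs2 stood at -0.89 with a limma adjusted p of 0.205, so it missed the threshold here. Alox5ap was 1.21 higher, under the fold asked for.

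MC, the cluster with Ccl17 and Mgl2 among its markers, gave 5 of 9 members against a background of 2.09%. Resident mLC were higher by 5.11 for Ptgs1, 3.65 for Hpgds, 3.29 for Alox5 and 3.28 for Ltc4s on the log2 scale. The member that fell was Alox15, at -2.89 ± 0.400 (SE; limma adjusted p = 9.41e-06), lower in 3 of 3 libraries. Tbxas1, at -1.91, fell just short of the fold asked for.

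**Figure D2:**
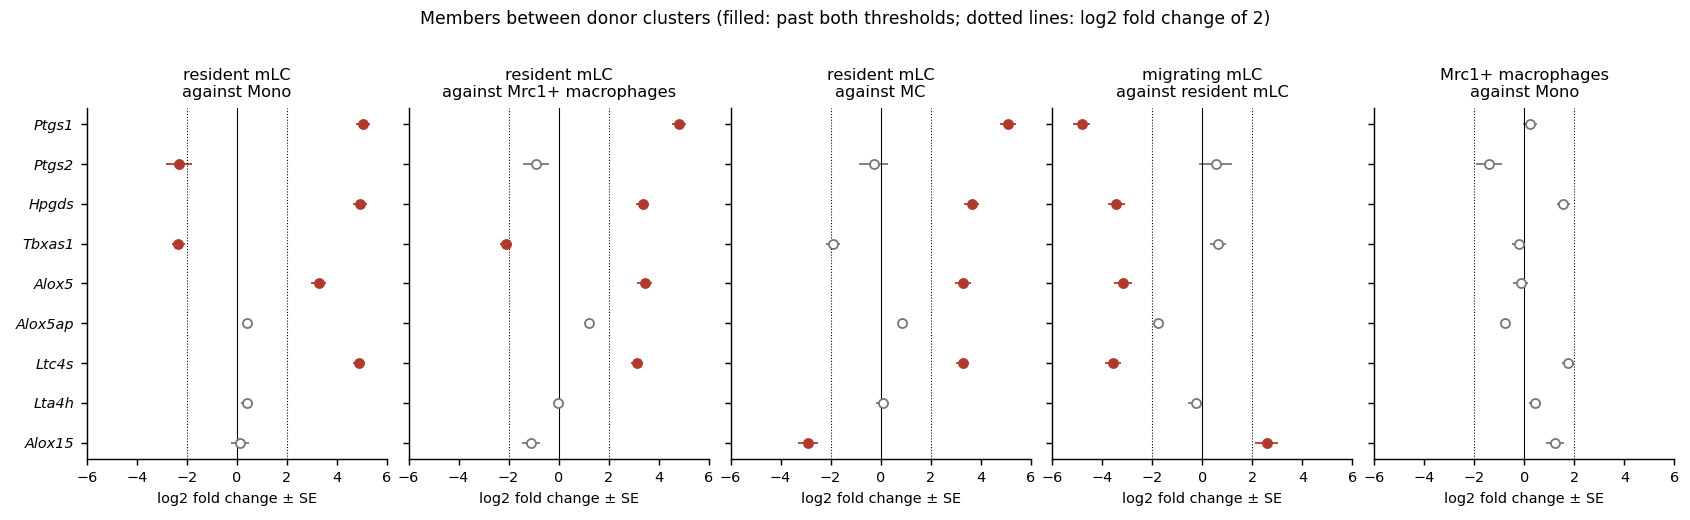
Log2 fold change (limma, on log2(CP10K + 0.1)) of each tested member in the 5 cluster comparisons, with bars of 1 SE and lines at the fold asked for. Ptgs1, Hpgds, Alox5 and Ltc4s lie above 2 wherever resident mLC are the first group and below -2 where migrating mLC are set against them.

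Migrating mLC are cells annotated by genes of dendritic cells leaving the skin. Only BMT replicates 1 and 2 had at least 20 of them, 91 and 766 cells, and their summed level of 5 migration markers was 55.1 and 64.8 CP10K. All 4 genes that were high in resident mLC fell in migrating mLC, with log2 fold changes of -4.84 for Ptgs1, -3.57 for Ltc4s, -3.44 for Hpgds and -3.17 for Alox5, each in 2 of 2 libraries. Ptgs1 stood at 0.0687 and 0.126 CP10K there, within the range of Mono. Alox15 rose by 2.56 ± 0.458 (SE; limma adjusted p = 0.000247). In all 5 of 9 members were called, against 2.61% of all genes. Alox5ap stood at -1.78, under the fold asked for. The 4 Langerhans markers summed to 44.5 to 54.8 CP10K in migrating mLC, against 64.1 to 89.8 CP10K in resident mLC. Of them, Mfge8 stood at 32.9 and 45.6 CP10K in migrating mLC and Cd207 at 0.472 and 0.790 CP10K.

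Between Mrc1+ macrophages and Mono, 0 of 9 members were called, where 0.413% of all genes tested were called (30 of 7267). At an unadjusted p under 0.05, limma counted 5 of the 9 members and 1681 of all genes, and limma-voom called 2 members. Ltc4s was higher in the macrophages by 1.75 and Hpgds by 1.56 on the log2 scale, in 4 of 4 libraries each, with limma adjusted p of 5.37e-05 and 0.000418. Ptgs2 stood at -1.43 with a limma adjusted p of 0.0995.

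How alike the members were was measured by Pearson's r over the 27 library and cluster means, which share libraries and clusters, and is given as a description. Ptgs1 ran with Alox5 (r = 0.892), Ltc4s (0.875) and Hpgds (0.869), and against Tbxas1 (-0.844). Ltc4s and Hpgds were each other's near neighbours, at 0.946, the second and the first place among all 7267 genes. The genes most like Ptgs1 were H2-M5 (0.972), Plekhg5 (0.963) and P2rx2 (0.957), and the gene most like Hpgds was Spns3 (0.967). N4bp3 (0.953) was most like Alox5, Mmp8 (0.906) most like Ptgs2, and Ltb4r1, the leukotriene B4 receptor, most like Tbxas1 (0.924). Alox15 came nearest to Aqp3 at 0.770 and Lta4h to Pias2 at 0.769. Fxyd5 (0.868) was most like Alox5ap.

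Whether members lay in the same resident mLC was asked for 3 pairs by the log2 odds ratio of detection per library, in cells thinned to 2000 UMIs. Only the pair of Ptgs1 and Ltc4s joins the 2 branches. Ptgs1 and Ltc4s were both seen in 23.3, 36.0 and 38.3% of resident mLC of BMT replicates 1 to 3 and in 40.7% of those of the BMT + T cells library. Their log2 odds ratios were 0.50, 0.47, 0.96 and 1.42, a mean of 0.84 ± 0.447 (SD, n = 4), above 0 in 4 of 4 libraries. The exact two-sided sign-flip permutation gave p = 0.13, which is the smallest 4 libraries allow, and 0.375 after adjustment over 3 pairs. For Ptgs1 and Hpgds the mean was 0.51 ± 0.527, above 0 in 3 of 4 libraries (exact p = 0.25, adjusted 0.375). It was 1.82 ± 0.409 at 4000 UMIs, above 0 in 4 of 4 libraries, 2.84 without thinning, and 0.33 without BMT replicate 3. For Ptgs1 and Ltc4s it was 0.68 at 4000 UMIs and 2.01 without thinning. Ptgs1 and Ptgs2 were seen together in 6 of 1127 cells of BMT replicate 2 and in 0 cells of the other libraries. In those others Ptgs2 was seen in 1 thinned resident mLC of BMT replicate 1 and in 0 of BMT replicate 3 and of the BMT + T cells library, so the odds ratios of this pair are set there by the 0.5 added to each count and say little about these cells.

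**Figure D3:**
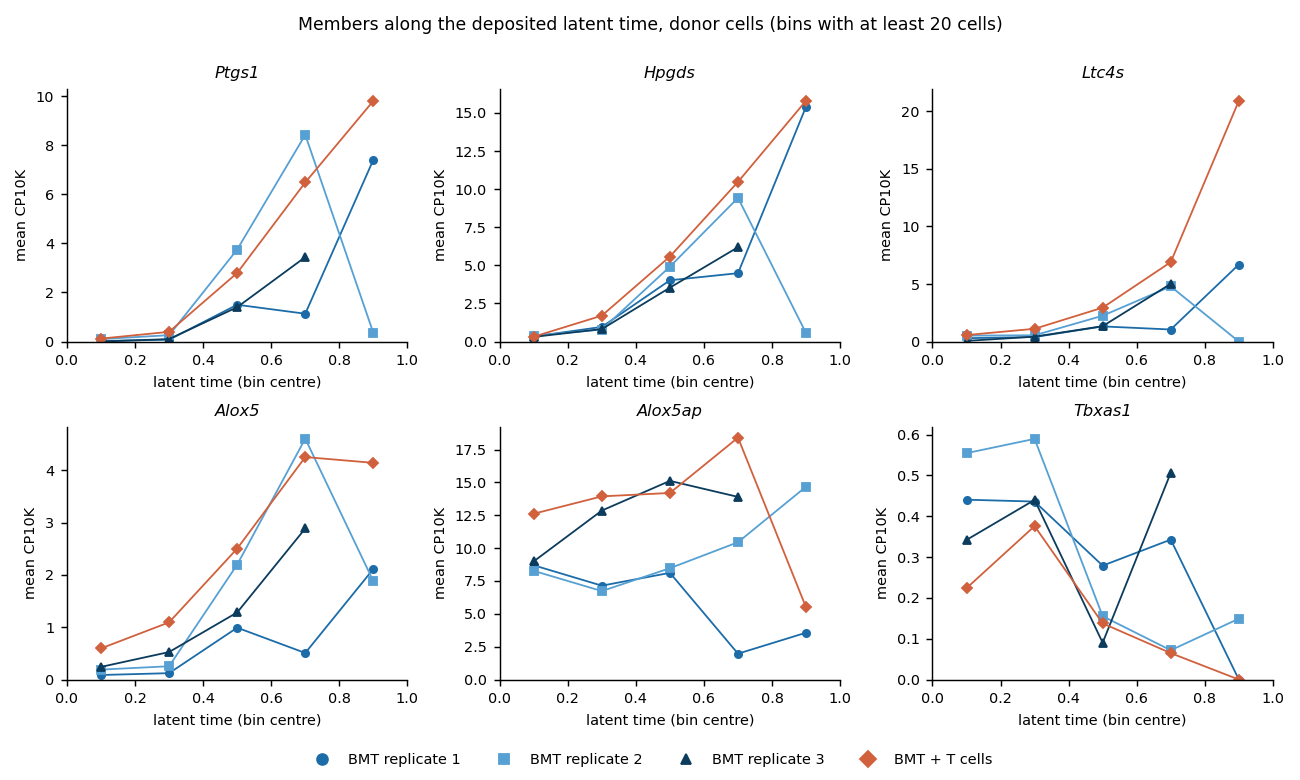
Mean level of 6 members (CP10K) in 5 equal bins of latent time, a fraction from 0 to 1 that the authors derived from RNA velocity, with 1 line for each donor library and bins of at least 20 cells. Hpgds climbs from the second to the fourth bin in all 4 libraries and Ptgs1 in 3 of 4, and in BMT replicate 2 both drop in the last bin, whose 77 cells are 98.7% S100a+ monocytes.

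Along the latent time deposited by the authors, Ptgs1 and Hpgds both rose at each step up to the bin from 0.6 to 0.8, except Ptgs1 in BMT replicate 1. In the BMT + T cells library Ptgs1 stood at 0.120, 0.396, 2.79, 6.48 and 9.80 CP10K in the 5 bins from 0 to 1, and Hpgds at 0.320, 1.70, 5.58, 10.5 and 15.8 CP10K. The last bin of that library rests on few UMIs, with 48 of Ptgs1 and 90 of Hpgds in 42 cells. In the bin before, 203 cells held 1432 and 2433 UMIs of these genes. In BMT replicate 2 Ptgs1 stood at 0.101, 0.259, 3.75, 8.42 and 0.352 CP10K. The last value belongs to 77 cells that were nearly all S100a+ monocytes, the cluster where Ptgs2 was high, and Ptgs2 stood at 9.62 CP10K in that bin. BMT replicate 1 rose less evenly, with 0.0203, 0.0766, 1.499, 1.13 and 7.40 CP10K for Ptgs1, and its last bin held 20 cells. Between its bins from 0.4 to 0.6 and from 0.6 to 0.8, Hpgds went from 4.02 to 4.49 CP10K while Ptgs1 fell. Tbxas1 in BMT replicate 2 stood at 0.554 and 0.589 CP10K in the first 2 bins and at 0.155 and 0.0717 CP10K in the next 2, while in BMT replicate 3 it stood at 0.0902 and 0.506 CP10K in those 2. The clusters also changed along latent time. In the BMT + T cells library the commonest was ISG monocytes (42.9%) from 0 to 0.2 and resident mLC (82.3%) from 0.6 to 0.8. In BMT replicate 1 it was Mrc1+ macrophages (31.7%) from 0.6 to 0.8. The part of this make-up in the levels was not tested. Latent time was computed from the same cells, so these are descriptions.

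Other genes of eicosanoid metabolism were taken from a list of 62, of which 45 had a row in the donor table and 22 passed the filter. None of the 22 was called higher in resident mLC than in Mono, and 3 were called lower. These were Ltb4r1 (-4.09, limma adjusted p = 2.33e-10), Mgst1 (-3.53), a microsomal glutathione transferase, and Cyp4f18 (-2.17), a cytochrome that inactivates leukotriene B4. The same 3 were lower than in Mrc1+ macrophages (-2.77, -2.69 and -2.51), and Ltb4r1 alone was lower than in MC (-3.17). No gene of the list was called between migrating and resident mLC, where at an adjusted p under 0.05 alone limma counted 1 higher and 5 lower of the 22 and 20.1% of all genes (1464 of 7267). None was called between Mrc1+ macrophages and Mono either, where limma counted 0 higher and 3 lower at that p, and 7.86% of all genes (571 of 7267). In levels, Ltb4r1 had a mean of 2.55 CP10K (1.21 to 3.67) in Mono and 0.0456 CP10K (0.0140 to 0.103) in resident mLC.

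By step, 4 genes of arachidonate release were tested against Mono, and 0 were higher and 2 lower at a limma adjusted p under 0.05, which 32.7% of all genes reached in either direction (2375 of 7267). Pla2g4a, the cytosolic phospholipase that frees arachidonate, had means of 0.680 CP10K in Mono and 0.574 CP10K in resident mLC, and Pla2g12a 0.301 and 0.476 CP10K. Plaat3 stood at 1.18 and 0.663 CP10K. Among other synthases, Ptges3 was level at 1.57 and 1.64 CP10K, and Mgst3 was 1.61 higher on the log2 scale in resident mLC (limma adjusted p = 3.36e-07). Abcc1, a transporter that exports leukotriene C4, had means of 0.505 CP10K in Mono and 0.866 CP10K in resident mLC. The receptor Cysltr1 stood at 0.633 and 0.292 CP10K, and Ptgir, the prostacyclin receptor, at 0.239 and 0.000898 CP10K. Cyp4f16 had a mean of 1.20 CP10K in resident mLC against 0.425 CP10K in Mono.

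The donor library labelled BMT + T cells was compared with the 3 labelled BMT over those 3 clusters with 20 cells or more in every library: Mono, Mrc1+ macrophages and resident mLC, with equal weight. Of 8 members tested 0 were called (absolute log2 fold change over 1), and of all 7345 genes tested 0% were called. At an unadjusted p under 0.05 limma counted 3 of the 8 members and 352 of all genes, and limma-voom also called 0 genes, with 467 at that p. Alox5 stood at 0.376, 0.559 and 0.712 CP10K in the BMT libraries and at 1.45 CP10K in the BMT + T cells library, 1.29 ± 0.331 higher on the log2 scale (SE; limma adjusted p = 0.949). Hpgds stood at 1.30, 0.968 and 1.47 CP10K against 2.39 CP10K. Ptgs1 stood at 0.338, 0.620 and 0.357 CP10K against 0.776 CP10K. Ptgs2 went the other way, with 0.343, 0.232 and 0.109 CP10K against 0.0565 CP10K, a log2 difference of -1.002 that became 0.22 when all cells of a library were pooled. The BMT + T cells value lay outside the range of the BMT values in 8 of 8 members tested, 6 above and 2 below, where it did so in 51.3% of all 7345 genes. The Mono cluster gave the widest gaps in Ptgs2 between the labels, as described above, and the summed neutrophil markers there were 1.06 CP10K in the BMT + T cells library against 0.674 to 4.16 CP10K, with their part not tested.

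These differences rest on 1 library against 3, and BMT replicate 3, the smallest library, decides the calls. Without it, limma called 202 genes and 3 members: Alox5 (1.47) and Hpgds (1.03) higher and Ptgs2 (-1.29) lower. In that fit the label and the library name form coincide and cannot be told apart. With library name form as a term, the label difference is that between the BMT + T cells library and BMT replicate 3 alone. It was 0.93 for Alox5 and 0.94 for Ptgs1 on the log2 scale, with 1 library on each side.

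Keratinocytes carried a different set of the 10 genes. Ptgs1, Ptges and Lta4h were the members with the most UMIs, 1139 to 2046 in each library. With 1 library under each label there is no test, and values are summed UMIs per 10000 with exact 95% Poisson intervals, which cover counting error only. Ptgs1 was a gene of the Differentiated cluster, at 2.35 CP10K (2.22 to 2.48) in the BMT library and 1.85 CP10K (1.71 to 1.99) in the BMT + T cells library. Basal keratinocytes stood at 0.283 and 0.257 CP10K, and the Follicular, KC_Four and KC_Five clusters at 0.137 to 0.356 CP10K. Differentiated cells also had the highest Hpgds, at 0.196 and 0.117 CP10K, against 0.0141 to 0.0712 CP10K elsewhere. All 6 mast cell markers with a row, of 7 listed, were at 0 in that cluster in both libraries.

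Ptges spread more evenly, at 1.07 and 0.924 CP10K in Differentiated cells, 0.770 and 0.764 CP10K in Basal cells and 0.272 to 0.836 CP10K in the others. Ptgs2 was sparse, with 90 UMIs in the BMT library and 109 in the BMT + T cells library, most of them in Basal cells (67 and 95 UMIs). Lta4h was level again, at 0.406 to 0.491 CP10K over clusters and libraries. The other 5 members were almost absent. Alox5 gave 4 and 5 UMIs in the 2 whole libraries, Ltc4s 9 and 2, Alox5ap 28 and 29, Tbxas1 2 and 1, and Alox15 1 and 1. The pan-leukocyte gene Ptprc and the MHC class II genes Cd74 and H2-Aa were also summed. Their sum was 0.213 to 0.798 CP10K over the clusters of the BMT library and 0.555 to 2.35 CP10K in the BMT + T cells library. In 9 of 10 library and cluster groups, 1 of the 3 was at 0. What part of this sum came from leukocytes was not tested.

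**Figure D4:**
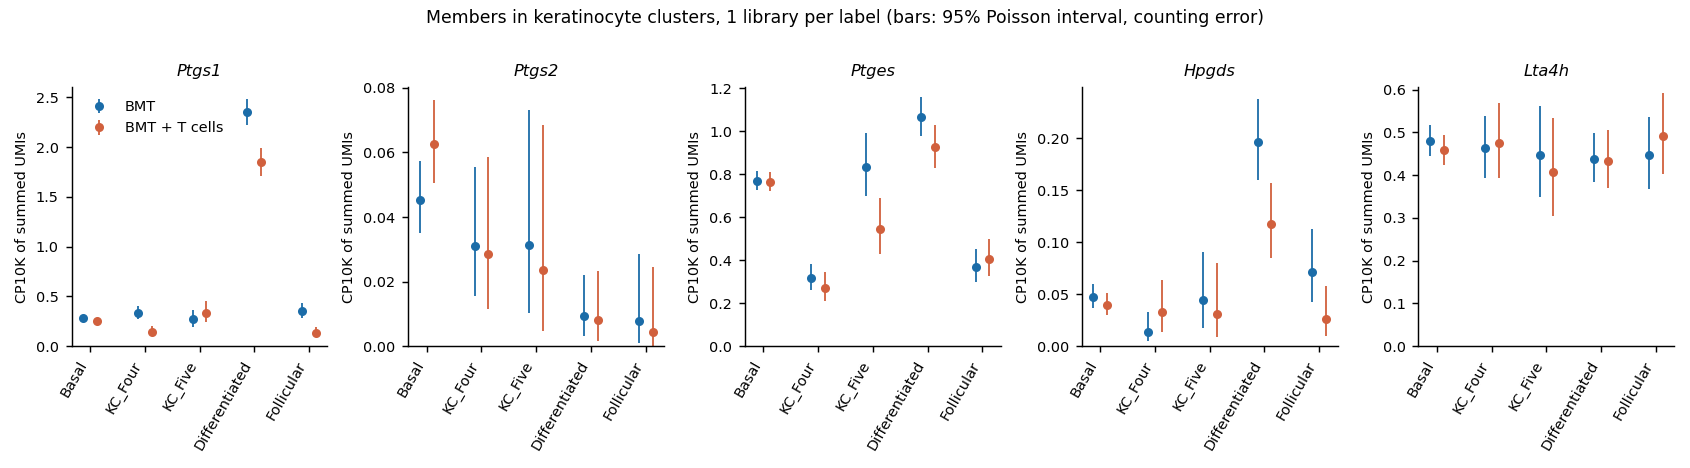
Level of Ptgs1, Ptgs2, Ptges, Hpgds and Lta4h (summed UMIs per 10000, with exact 95% Poisson intervals) by keratinocyte cluster in the BMT and the BMT + T cells library. Ptgs1 is highest in Differentiated cells (2.35 and 1.85 CP10K), and Lta4h is level across the 5 clusters (0.406 to 0.491 CP10K).

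Between the keratinocyte labels, 0 of the 6 members with at least 20 UMIs differed by an absolute log2 difference above 1, where 0.256% of 13291 genes did (34). No p is given for this single pair of libraries. Ptgs1 was lower in the BMT + T cells library, by -0.45 on log2(CP10K + 0.1), and its log2 ratio had a counting interval of -0.63 to -0.42. By cluster, Ptgs1 differed by -0.33 in Differentiated, -0.94 in Follicular, -0.84 in KC_Four, -0.10 in Basal and 0.24 in KC_Five cells. Differentiated cells numbered 493 in the BMT library and 353 in the BMT + T cells library, and 2836 and 2590 were all cells. Hpgds differed by -0.22 and Ptgs2 by 0.12 (-0.004 with equal weight for each cluster), while Ptges, at -0.07, and Lta4h, at -0.02, had counting intervals of the log2 ratio that include 0. Of the pathway list, the highest in keratinocytes were Mgst3 (3.52 CP10K), Ptges3 (3.11), Mgst1 (1.92) and Mgll (1.33), an enzyme that frees arachidonate from an endocannabinoid. Hpgd, which degrades prostaglandins, stood at 0.559 CP10K, and the leukotriene receptors Cysltr1, Ltb4r2 and Ltb4r1 at 0.616, 0.350 and 0.269 CP10K.

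Host myeloid cells, the recipient's own CD11b+MHCII+ cells, were 781 in 1 library with 5141845 UMIs. Their 7 clusters carry numbers only. Clusters 1 to 4, with 276, 170, 161 and 90 cells, held summed Langerhans markers of 12.8, 50.7, 18.7 and 33.1 CP10K. Their summed endothelium markers were 16.3, 14.1, 7.81 and 10.2 CP10K, against 0 to 0.0188 CP10K in donor resident mLC. The summed pan-leukocyte and MHC class II genes (Ptprc, Cd74 and H2-Aa) were 39.8, 234, 63.5 and 109 CP10K, against 393.6 to 619.8 CP10K there. Donor values come from a table made separately, and the part of these markers was not tested. Cluster 5 (43 cells) stood at 350.2 CP10K for 6 keratin genes, cluster 6 (23 cells) at 160.6 CP10K for T and NK cell markers, and both at 2.04 CP10K or less for Langerhans markers. Median mitochondrial shares were 15.6, 6.09, 17.0 and 12.9% in clusters 1 to 4, and cluster 2 had the fewest UMIs, a median of 1763.5 per cell.

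The 4 genes of donor resident mLC were also those of host clusters 1 to 3. Hpgds stood at 23.2, 10.3 and 23.4 CP10K there, Ptgs1 at 8.54, 4.73 and 8.60 CP10K, and Ltc4s at 6.97, 4.12 and 7.88 CP10K. Alox5 stood at 2.18, 2.72 and 2.75 CP10K. Cluster 4 also held migration markers, at 37.3 CP10K summed against 0.988 to 2.33 CP10K in clusters 1 to 3, and was lower in all 4 genes: Hpgds 7.65, Ltc4s 2.06, Ptgs1 1.34 and Alox5 0.390 CP10K. Ptgs2 had 0 UMIs in clusters 1 to 4, where a count of 0 allows up to 0.0264, 0.0380, 0.0380 and 0.0502 CP10K (3 counts of each total). Its 18 UMIs lay in cluster 5 (17 UMIs) and cluster 7 (1 UMI). Ptges likewise stood highest in cluster 5, at 0.926 CP10K, where 37 of 43 cells had a UMI and the keratin genes were high. Its mean of 0.364 CP10K in cluster 2 rests on 5 UMIs.

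Alox5ap was uneven in host cells. Cluster 2 stood at 4.47 CP10K, and clusters 1, 3 and 4 stood at 0.384, 0.901 and 0.0682 CP10K, while mean Alox5 was 2.18 to 2.75 CP10K in clusters 1 to 3. Donor resident mLC stood at 12.1 to 18.7 CP10K in a table that the authors made separately, so the values are given side by side and were not tested. Cluster 2 was also the cluster with the highest Cd207 (14.0 CP10K, against 1.56 to 6.84 CP10K in clusters 1, 3 and 4). Its 6 keratin genes summed to 40.6 CP10K, against 2.86 to 6.08 CP10K in those 3, and its T and NK cell markers to 3.16 CP10K, against 0.278 to 0.770 CP10K. Their part in the Alox5ap level was not tested. Tbxas1 stood at 0.407, 0.103 and 0.541 CP10K in clusters 1 to 3, above its level of 0.0120 to 0.121 CP10K in donor resident mLC except for cluster 2, with the same limit. Lta4h was 0.104 to 0.414 CP10K over the 7 clusters.

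**Figure D5:**
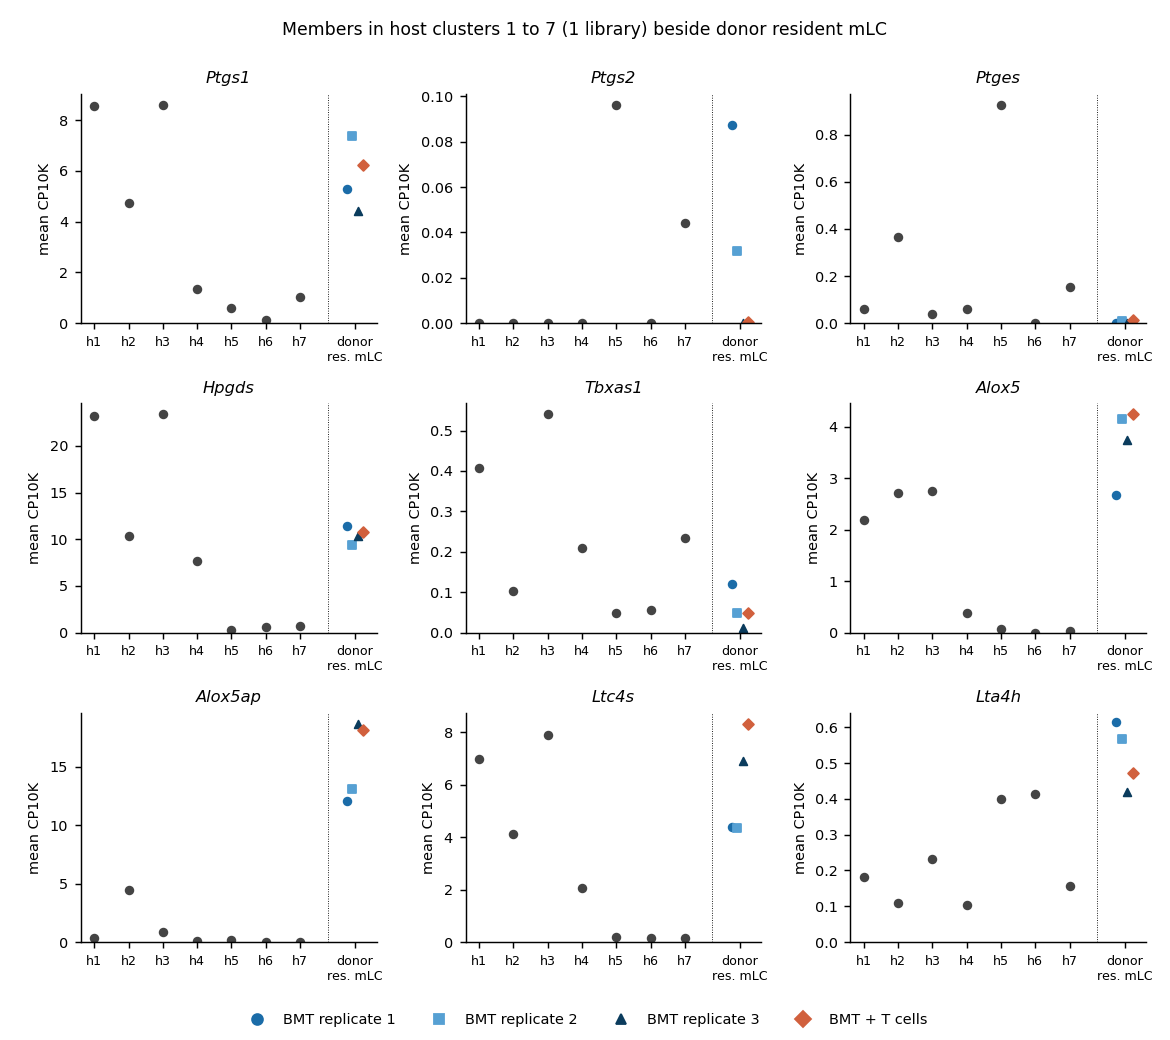
Level of the 9 members with a row (mean CP10K) in the 7 clusters of the single host library (h1 to h7), with donor resident mLC of the 4 donor libraries beside them from a table made separately. Hpgds, Ptgs1, Ltc4s and Alox5 are high in clusters 1 to 3, Alox5ap in cluster 2 at 4.47 CP10K, and Ptges in cluster 5 at 0.926 CP10K.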

How the data were processed

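Droplet libraries (10x, 5′ chemistry) were made from donor myeloid cells (4 libraries), keratinocytes (2) and host myeloid cells (1). The authors deposited each value as a natural log, ln(1 + UMIs per 10000 of that cell). They used kallisto and bustools before Seurat, and the submitters' processing notes name GRCm38 (annotation not given in the sources used here). The mitochondrial column deposited by the authors was in percent and their latent time a fraction. The authors state that cells with fewer than 500 genes or more than 20% mitochondrial UMIs, and likely doublets (by DoubletFinder), were removed, and none was looked for again. In the files, 72 donor cells and 133 host cells fell below the limit of 500 genes, and 181 and 208 exceeded that of 20%. All deposited cells were kept.

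After the log was undone, 100% of values were whole UMIs (tolerance 0.001), so UMIs and depth were recovered. Genes of the donor table held 91.3% of the UMIs of a cell (median). Donor libraries held 2982296 to 64343817 UMIs, keratinocyte libraries 24959785 and 27817737. CP10K was averaged over cells of each library and cluster with at least 20 cells, and genes with a mean of at least 0.1 entered limma 3.58.1 as log2(CP10K + 0.1) (R 4.3.3, statmod 1.5.0, trend and robust prior, library as block, Benjamini-Hochberg adjustment). A fold change on this scale understates the change of low genes. Clusters were the authors' Leiden clusters. In the label fit the single BMT + T cells library was taken to vary as much as the BMT ones. Co-detection added 0.5 to each cell of the 2 by 2 table. Promoters and positions came from RefSeq tables (GRCm38.p6). Other tools were matplotlib 3.10.9, pandas 2.3.3, SciPy 1.17.1 and NumPy 2.4.6 under Python 3.11.15. The fits were tested on simulated data. Intervals and floors are exact 95% ones or 3 counts and cover counting error only.

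Members, lists and the naming rule were chosen with earlier results of these data known. Named beside the 10 members were, from a list of 62 other pathway genes, those called between clusters and the 3 with the highest mean in each of 4 groups, and the 3 genes of highest correlation with each member, of which those above are a selection. Alternatives were other pseudocounts, filters, scalings and models, and leaving out each library.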

Additional observations from a re-analysis of the deposited data

Results flagged for a closer look

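The difference between the labels, BMT + T cells minus BMT, pointed opposite ways in keratinocytes and in donor myeloid cells for 4 members. Of the members tested in donor cells with at least 20 keratinocyte UMIs, only Alox5ap did not. How many of all genes pointed opposite ways was not counted. Ptgs1 was at -0.45 in keratinocytes and 0.74 in donor cells (log2 scale), and Hpgds at -0.219 and 0.91. Ptgs2 was at 0.118 in keratinocytes and -1.002 in donor cells, and Lta4h at -0.022 and 0.22. Donor values are means over 3 clusters with equal weight and keratinocyte values are over all cells. With all donor cells pooled, the donor difference was 1.91 for Ptgs1 and 1.545 for Hpgds, opposite to keratinocytes. It was 0.22 for Ptgs2 and -0.13 for Lta4h, the direction of keratinocytes. Pooled values also depend on how many cells each cluster gives. Resident mLC, where Ptgs1 and Hpgds were highest, made up 44.5% of the BMT + T cells library. Under the BMT label their share was 4.08% (replicate 1), 14.0% (replicate 2) and 22.6% (replicate 3). The part of these shares in the pooled differences was not tested. The keratinocyte value of Ptgs2 was -0.004 with equal cluster weights, and that of Lta4h has a counting interval of the log2 ratio of -0.143 to 0.089, so neither of these 2 has a settled direction. In donor cells the BMT + T cells value lay outside the range of the 3 BMT values, as it did in 51.3% of all 7345 genes. In keratinocytes each label is 1 library, so the difference between the cell types was not tested. Groups of 3 libraries were not examined for samples that stand apart.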

How the results depend on the processing

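Ptgs1, Hpgds and Ltc4s were called in the 4 comparisons that involve resident mLC under all 14 settings run, and Alox5 under 13 of them. With a pseudocount of 1, 3 members were called in each of these comparisons. Without BMT replicate 1 or 2, the migrating mLC came from 1 library, so those settings are no check between libraries for that comparison. With a pseudocount of 0.01 the genes called rose to 630 (Mono), 547 (Mrc1+ macrophages), 326 (MC), 421 (migrating mLC) and 78 (Mrc1+ macrophages against Mono), with a pseudocount of 1 they fell to 41, 42, 14, 26 and 5, and limma-voom on recovered UMIs gave 565, 474, 288, 408 and 91. Between Mrc1+ macrophages and Mono 2 members were called with a pseudocount of 0.01 and 2 with limma-voom. Without library as a replicate block, 290, 252, 156, 225 and 27 genes and 6, 5, 5, 6 and 0 members were called. No paired analysis was possible because no replicate number is shared between the labels. Leaving out 1 library gave 0 to 3 members and 0 to 202 genes between the donor labels, with the highest values without BMT replicate 3, and library name form as a term gave 141 genes. Signs changed for small differences and for the label difference of Ptgs2 in donor cells. Lta4h between resident mLC and Mrc1+ macrophages was 0.26 with at least 50 cells, 0.26 on summed UMIs, 0.28 after the quality filter, 0.20 with limma-voom and -0.18 to 0.21 with 1 library left out (the highest without BMT replicate 3), and against MC it was -0.038 with at least 50 cells, -0.14 with limma-voom and -0.083 to 0.17 with 1 library left out (the lowest without BMT + T cells). Between Mrc1+ macrophages and Mono, Ptgs1 was -0.16 on summed UMIs, and Alox5 was 0.070 with at least 50 cells, 0.12 on summed UMIs and -0.32 to 0.14 with 1 library left out (the highest without BMT replicate 3). Over pooled cells the donor label difference was 0.22 for Ptgs2, against -1.002 in the main fit, and -0.13 for Lta4h, against 0.22. In keratinocytes Ptgs1 was -0.193 with a pseudocount of 1. The log2 odds ratio of Ptgs1 and Ptgs2 was -0.73 to 0.11 with 1 library left out, the highest without BMT replicate 1, -1.42 at 4000 UMIs and -2.18 without thinning (below 0 in 4 of 4 libraries). The cause of these changes was not tested. Of the other log2 fold changes of members, 636 kept direction and side of the threshold, 13 gained the call and 13 lost it. With 20 to 51 cells behind some means, low members such as Ptges and Alox15 are limited by depth.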

Other observations

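Some clusters held fewer than 20 cells in a library and entered no comparison. Ptgs2 stood at 21.5 CP10K in 9 S100a+ monocytes of the BMT + T cells library (37 UMIs) and at 0.818 CP10K in 11 of BMT replicate 1 (5 UMIs), with neutrophil markers summing to 1437 and 1602 CP10K there. The 6 Hmox1+ monocytes of BMT replicate 3 held 0 Ptgs2 UMIs, which allows up to 0.523 CP10K.

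In resident mLC, the share of a library's Hpgds UMIs was 29.2% in BMT replicate 1, 64.5% in BMT replicate 2, 80.2% in BMT replicate 3 and 79.3% in the BMT + T cells library, where resident mLC were 4.08, 14.0, 22.6 and 44.5% of cells. For Alox5ap, a gene of every donor cluster, the shares were 5.47, 23.9, 39.8 and 52.4%, and for Lta4h 3.52, 15.2, 37.2 and 45.4%. Shares of Ltc4s were 22.6, 52.0, 78.2 and 80.7%.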
